A study of Mus musculus with 10 samples.

Results

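The MYC, MAX and MXD network was followed in hematopoietic stem cells (HSCs) with and without Cited2, which encodes a transcriptional coregulator that binds CBP and p300. Its 10 members (Myc, Mycn, Mycl, Max, Mlx, Mxd1, Mxd3, Mxd4, Mnt and Mga) were chosen by gene symbol from the 26146 genes of the count table, and 9 of them were among the 14165 genes with enough reads to be tested. RNA was sequenced in bulk from LSK CD48-CD150+ HSCs (lineage-negative, Sca-1-positive, c-Kit-positive bone marrow cells), with 1 library per mouse and 5 mice per genotype. Cited2 CTL mice were Cited2 fl/fl without Cre and are labelled wildtype, so both genotypes carry the floxed allele. Cited2 CKO mice were Cited2 fl/fl;Vav-iCre, in which the Vav regulatory elements drive Cre throughout the hematopoietic system. The Cre transgene was present only in the CKO group, so its effect and that of the deletion cannot be told apart. The strain was C57BL/6J and the mice were 8 to 12 weeks old.

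MYC proteins are basic helix-loop-helix leucine zipper factors that bind DNA only as dimers with MAX, mostly at the E-box CACGTG, and raise the transcription of genes for ribosome biogenesis, metabolism and cell division. MXD proteins and MNT compete with MYC for MAX and bring the SIN3 and histone deacetylase corepressor to the same sites, MGA takes MAX into a noncanonical Polycomb complex, and MLX is a MAX-like partner of MLXIP, MLXIPL, MNT and some MXD proteins. In HSCs, Myc is known to tune the balance between self-renewal and differentiation, and Myc and Mycn can cover for each other.

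Several members have the network's own binding sequence in their promoter. RefSeq promoter windows (GRCm38.p6, 250 bases before to 50 bases after the start of each gene) were found for 9 of the 10 members, and 4 of these windows hold CACGTG, a palindrome that reads the same on both strands. Of 32851 RefSeq promoter windows of that length, 2349 (7.15%) hold it, as do 1256 of the 10966 tested genes with a window (11.5%). The 50-base stretches around the E-box of these members are shown because they place the recognition sequence of the network in its own genes, with the E-box in capitals and each read 5′ to 3′ on the strand of the gene. The E-box begins 3 bases before the RefSeq start in Max, 40 in Mlx, 123 in Mnt and 219 in Mxd4.
Max, chr12:76962224-76962273, minus strand: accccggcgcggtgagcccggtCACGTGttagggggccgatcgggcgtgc
Mlx, chr11:101087228-101087277, plus strand: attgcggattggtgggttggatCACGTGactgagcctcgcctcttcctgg
Mnt, chr11:74830779-74830828, plus strand: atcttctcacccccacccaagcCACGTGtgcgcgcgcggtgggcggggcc
Mxd4, chr5:34187902-34187951, minus strand: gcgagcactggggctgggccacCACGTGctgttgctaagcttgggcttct
A match of these letters is a description of the window and not a measured binding site. The windows of Mycn, Mycl, Mxd1, Mxd3 and Mga do not hold these letters, and no window was read for Myc.

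The deposited counts summed to between 3058690 and 4548795 reads per CTL library and between 3500215 and 4315029 per CKO library. These sums are far below the average number of reads that the authors sequenced per sample. The reason is not given in the sources used here. Cited2 was at 101, 171, 162, 222 and 160.2 CPM (reads of a gene scaled by the library total after TMM normalization) in CTL 1 to 5, and at 3.80, 4.21, 120.1, 5.00 and 8.30 CPM in CKO 1 to 5. Its log2 fold change was -2.51 with all libraries (edgeR, adjusted p = 0.328) and -4.92 without CKO 3 (adjusted p = 1.82e-06). The library labelled CKO 3 held Cited2 within the range of the controls, and the fold changes of the members are given with it and without it. All 9 HSC markers examined were tested and their summed level was 1637 to 1924 CPM in CTL and 1486 to 1752 CPM in CKO libraries, with no marker at 0 in all libraries. The summed level of 5 multipotent progenitor markers was 500 to 595 CPM in CTL and 515 to 562 CPM in CKO libraries. A two-sided exact permutation test of this sum gave p = 0.992 (n = 5 and 5). Of these markers, Cd48, whose absence from the cell surface defines the sorted cells, was at 14.4 to 27.4 CPM in CTL and 38.5 to 60.8 CPM in CKO libraries. It was the only one of the markers examined that was called (log2 fold change 1.18 ± 0.20, edgeR, adjusted p = 0.0264; 1.26 and adjusted p = 0.0156 without CKO 3). The summed level of 5 T and NK cell markers was 52.9 to 101 CPM in CTL and 88.8 to 127 CPM in CKO libraries (two-sided exact permutation test, n = 5 and 5, p = 0.0476), and most of it was Nkg7, with means of 69.7 and 96.4 CPM. The means of the other T cell markers (Cd3e, Cd3d, Cd8a and Cd4) were at most 4.48 CPM. The sum of 4 mast cell and basophil markers was 34.6 to 56.7 and 56.5 to 117 CPM (p = 0.0159 by the same exact test), and most of it was Cpa3, with means of 36.6 and 72.0 CPM. The sums of the HSC, megakaryocyte, erythroid, neutrophil, monocyte, B cell, and endothelial and stromal markers gave p of 0.127 or above by that test. The p-values of the marker sums were not adjusted for the number of sets. The part of these marker genes in the results below was not tested.

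No member of the network passed the threshold for a change with genotype. By edgeR's quasi-likelihood test (adjusted p under 0.05 over all tested genes and a fold change above 20%), 0 of 9 tested members were called, beside 32 of 14165 genes (0.226%), of which 17 were higher in CKO (0.12%) and 15 lower (0.106%). DESeq2's Wald test called none of the members either, beside 338 of 13881 genes (2.43%). At an unadjusted p under 0.05, 2 of the 9 members passed in edgeR, Myc and Mycn, where 12.9% of all genes did. In CPM, all 9 members overlapped between the genotypes, whereas 3.33% of all genes did not overlap. In bulk HSC samples, fewer cells with a transcript and less of it per cell cannot be told apart.

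**Figure D1:**
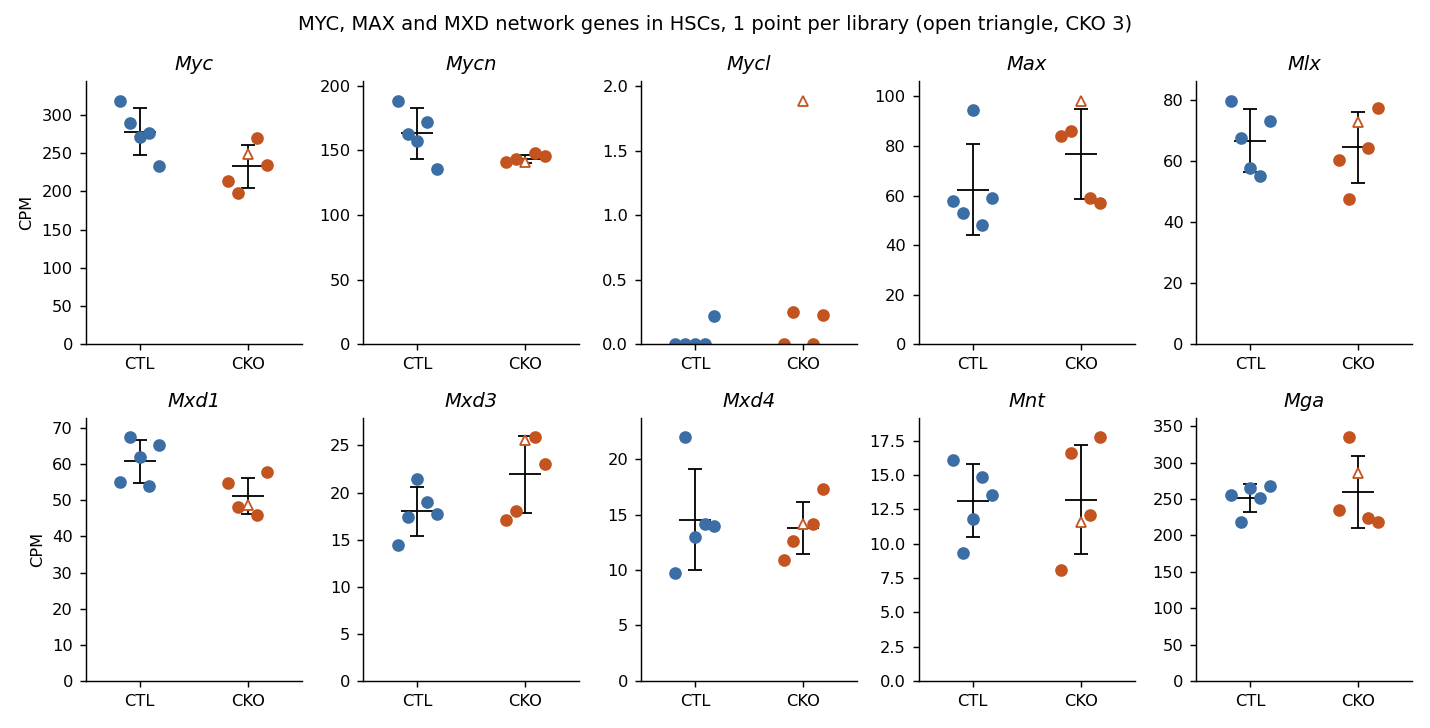
CPM of the 10 members in each library, with 1 point per library, bars for the mean ± SD of 5 libraries (not drawn for Mycl) and an open triangle for CKO 3. CTL and CKO points overlap for each tested member, and the lowest Myc levels, 197 and 213 CPM, are in CKO libraries.

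Myc, which encodes c-MYC (chr15:61985391-61990374, plus strand, GRCm38), was at 319, 289, 271, 276 and 234 CPM in CTL 1 to 5. The CKO libraries 1 to 5 were at 213, 197, 248, 269.9 and 234 CPM. All 5 CKO libraries lay below the CTL mean, 2 of them lay below the lowest CTL library, and the groups overlapped from 234 to 269.9 CPM. The means were 278 ± 30.8 CPM in CTL and 233 ± 28.5 CPM in CKO (SD, n = 5 each). This gave a log2 fold change of -0.26 ± 0.10 (SE; 95% interval -0.46 to -0.05), which did not pass the threshold (edgeR, adjusted p = 0.293). The two-sided exact permutation test of the CPM values alone, adjusted for no other gene, gave p = 0.0476 with 5 and 5 libraries and the same value without CKO 3. Without CKO 3 the log2 fold change was -0.28. When each library was also fitted with an offset for the GC content and length of genes (the GC and length offset), it was -0.13.

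Mycn, which encodes N-MYC (chr12:12936093-12941914, minus strand), was at 189, 163, 157, 172 and 136 CPM in CTL 1 to 5. In CKO 1 to 5 it was at 141, 143, 141, 148 and 146 CPM. Mycn was lower on average in CKO libraries, and the CTL libraries spread far more (SD 19.5 CPM) than the CKO libraries (SD 3.05 CPM), which all lay within the CTL range. The log2 fold change was -0.18 ± 0.08 (95% interval -0.36 to -0.00; edgeR, p = 0.0494, adjusted p = 0.386), and the exact permutation test gave p = 0.0556 (n = 5 and 5; 0.0952 without CKO 3, where the log2 fold change was again -0.18). With the GC and length offset, the log2 fold change of Mycn was -0.02. The GC content of Mycn (54.8%) and of Myc (53.3%) was above the median of all tested genes (48.8%).

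Mycl, which encodes L-MYC (chr4:122995652-123002485, plus strand), was close to absent. It had 1 read in CTL 5 and none in the other CTL libraries, and 0, 1, 8, 0 and 1 reads in CKO 1 to 5. The 8 reads of CKO 3 were the highest value, and Mycl had too few reads for a test.

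Max encodes the shared partner of the network (chr12:76937269-76962201, minus strand). Its level was 57.9, 52.8, 94.4, 48.3 and 58.9 CPM in CTL 1 to 5, and 83.9, 86.1, 98.3, 59.1 and 56.9 CPM in CKO 1 to 5. CKO 1, CKO 2 and CKO 3 lay far above 4 of the 5 CTL libraries, CKO 4 and CKO 5 lay near those, and CTL 3 stood apart from its group at a level close to CKO 3. The libraries high in Max were also those with the most genes detected (any read). CTL 3 had 22045 such genes, and CKO 1, CKO 2 and CKO 3 had 21517, 22831 and 21448. The other libraries had 17323 to 20397, and the part of this in the level of Max was not tested. The log2 fold change of Max was 0.30 ± 0.20 (95% interval -0.12 to 0.73; edgeR, adjusted p = 0.551), and the exact permutation test gave p = 0.262 (n = 5 and 5). It was 0.20 without CKO 3 and 0.50 without CTL 3, where the adjusted p was 0.301, the smallest of all alternatives run for Max (the largest was 0.927).

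Mlx (chr11:101087277-101092207, plus strand) was at 55.3 to 79.9 CPM in CTL and 47.7 to 77.4 CPM in CKO libraries, with medians of 67.7 and 64.4 CPM. Its log2 fold change was -0.05 ± 0.15 (edgeR, adjusted p = 0.924), so the data allow a ratio of CKO to CTL between 0.779 and 1.20. It was -0.09 without CKO 3. Exons of Mlx overlap Psmc3ip on the other strand, and the use of strand in counting is not given in the sources used here. The sign of the difference turned when single libraries were left out.

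Among the MAX partners that repress, Mxd1 had the smallest p. Mxd1 (chr6:86647042-86669161, minus strand), a MAX partner that accompanies differentiation in many lineages, was at 55.2, 67.4, 62.0, 53.9 and 65.2 CPM in CTL 1 to 5. CKO 1 to 5 were at 54.9, 48.2, 48.7, 45.9 and 57.8 CPM. All CKO libraries lay below the CTL mean of 60.7 CPM, and 3 of the 5 lay below the lowest CTL library. This corresponds to a log2 fold change of -0.25 ± 0.12 (95% interval -0.50 to 0.00; edgeR, p = 0.0509, adjusted p = 0.391), and the exact permutation test gave p = 0.0397 (n = 5 and 5; 0.0794 without CKO 3). It was -0.23 with the GC and length offset and -0.23 without CKO 3.

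Mxd3 (chr13:55325168-55329823, minus strand), the MXD gene known to be expressed in dividing cells, was at 14.4, 17.4, 21.5, 19.0 and 17.7 CPM in CTL 1 to 5. Its level was 17.1, 18.1, 25.5, 25.9 and 23.0 CPM in CKO 1 to 5. CKO 3, CKO 4 and CKO 5 lay above all CTL libraries and the other two CKO libraries within them. The log2 fold change of 0.28 ± 0.20 (95% interval -0.14 to 0.71) did not pass the threshold (edgeR, adjusted p = 0.599), and it was 0.22 without CKO 3 and 0.46 with the offset. Exons of Mxd3 overlap Prelid1 on the other strand.

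Mxd4 (chr5:34173883-34187720, minus strand) was at 9.70 to 22.0 CPM in CTL libraries and 10.9 to 17.3 CPM in CKO libraries, with a log2 fold change of -0.08 ± 0.26 (edgeR, adjusted p = 0.930). Mnt (chr11:74830920-74845725, plus strand), a broadly expressed MAX-binding repressor, was at 9.35 to 16.1 CPM and 8.08 to 17.7 CPM, with a log2 fold change of 0.01 ± 0.28 (edgeR, adjusted p = 0.990). Both genes had few reads, and the intervals of the ratio of CKO to CTL were wide, from 0.646 to 1.39 for Mxd4 and from 0.669 to 1.52 for Mnt. Without CKO 3 the log2 fold changes were -0.09 for Mxd4 and 0.06 for Mnt, and with the GC and length offset they were -0.10 and 0.25. Leaving out other single libraries turned the sign of either difference.

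Mga (chr2:119897228-119969581, plus strand), whose protein joins MAX to a Polycomb complex, had a CPM near that of Myc and the longest deposited gene length of the members. It was at 255, 219.0, 265, 251.8 and 267 CPM in CTL 1 to 5, and at 235, 335, 286, 225 and 218.5 CPM in CKO 1 to 5. CKO 2 and CKO 3 lay above all CTL libraries, CKO 5 lay just below them, and the SD was 49.8 CPM in CKO and 19.4 CPM in CTL. The log2 fold change was 0.05 ± 0.11 (95% interval -0.19 to 0.29; edgeR, adjusted p = 0.897), and it was 0.01 without CKO 3. It turned to -0.24 (adjusted p = 0.767, in a range of 0.735 to 0.997 over all alternatives) with the GC and length offset. The GC content of Mga is 42.2%, the lowest of the members.

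**Figure D2:**
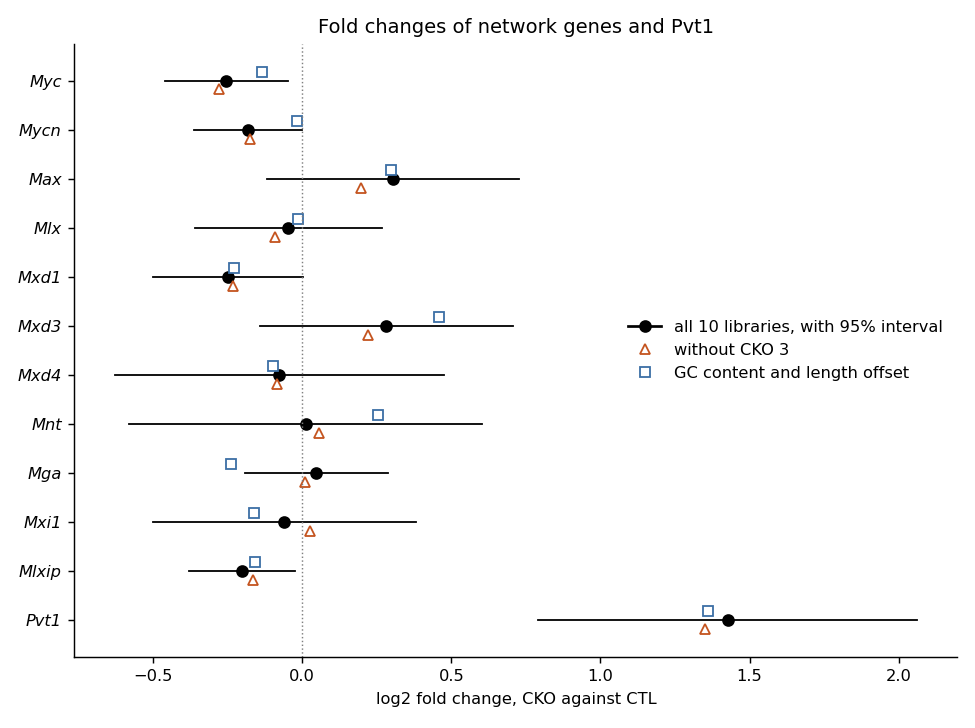
Log2 fold change of CKO against CTL (horizontal axis) for the 9 tested members, Mxi1, Mlxip and Pvt1, with lines for the 95% interval of the edgeR fit and open symbols for the fit without CKO 3 and with the GC and length offset. The interval of Pvt1, 0.79 to 2.06, lies apart from 0, and those of 7 of the 9 members include 0; the offset moves Myc and Mycn toward 0 and Mga below it.

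Of the other genes of the extended network, Mxi1, an MXD family member, had a log2 fold change of -0.06 ± 0.21 (edgeR, adjusted p = 0.932), which turned to 0.03 without CKO 3 and was -0.16 with the offset. Mlxip, which encodes the MLX partner MondoA, was at 149, 179, 156, 166 and 175 CPM in CTL 1 to 5. The CKO values were 136, 143, 129, 164 and 147 CPM in libraries 1 to 5, so 4 of 5 CKO libraries lay below the lowest CTL library. The log2 fold change of Mlxip was -0.20 ± 0.08 (95% interval -0.38 to -0.02; edgeR, p = 0.0294, adjusted p = 0.336), and the exact permutation test gave p = 0.0397 (n = 5 and 5; 0.0794 without CKO 3). Its log2 fold change was -0.16 without CKO 3. Mlxipl, which encodes the other MLX partner ChREBP, had a mean of 0.897 CPM in CTL and 1.19 CPM in CKO and too few reads for a test.

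Pvt1, the noncoding gene next to Myc, separated the genotypes where Myc did not. Pvt1 (chr15:62037986-62378096, plus strand) starts 47611 bases beyond the end of Myc on the same strand, and is known as a neighbour that is often co-amplified with Myc in tumours and whose promoter can compete with that of Myc for enhancers. It was at 4.35, 11.4, 12.9, 9.75 and 7.44 CPM in CTL 1 to 5, and at 23.5, 24.5, 29.8, 14.7 and 31.1 CPM in CKO 1 to 5. Every CKO library lay above every CTL library, where 1.35% of all tested genes were higher in CKO without overlap. This includes CKO 3, which held Cited2 RNA within the range of the controls. The means were 9.17 ± 3.38 CPM in CTL and 24.7 ± 6.49 CPM in CKO (SD, n = 5 each), and the exact permutation test gave p = 0.00794, the smallest that 5 against 5 libraries allow. The log2 fold change was 1.43 ± 0.30 (95% interval 0.79 to 2.06), which missed the threshold in edgeR (adjusted p = 0.0709) and passed it in DESeq2 (adjusted p = 0.00103). Over all alternatives the adjusted p lay between 0.00103 and 0.267, and the log2 fold change was 1.35 without CKO 3 and 1.36 with the offset. Without CKO 4, the lowest CKO library, it was 1.56 and passed in edgeR (adjusted p = 0.0497). Exons of Pvt1 overlap H2afy3 on the other strand, which was at 0.554 CPM in CTL and 1.14 CPM in CKO on average.

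**Figure D3:**
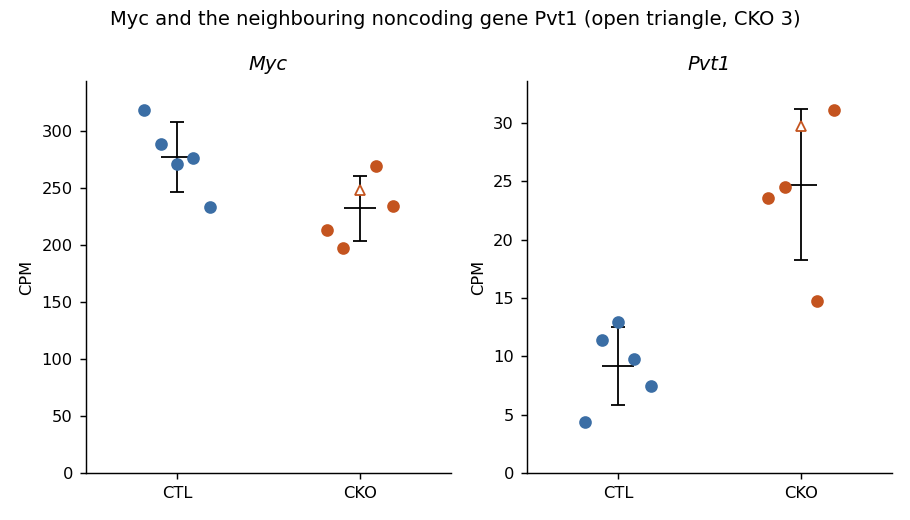
CPM of Myc (left) and Pvt1 (right) by genotype, with 1 point per library, bars for the mean ± SD of 5 libraries and an open triangle for CKO 3. The 5 CKO libraries lie at 14.7 CPM or above for Pvt1, all over the CTL maximum of 12.9 CPM, while for Myc the groups overlap.

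Levels of different members were compared per gene length, as TPM, in which deposited counts are divided by deposited gene length and scaled to the same total in each library. In CTL HSCs the order was Myc (275 ± 25.6 TPM), Mycn (150 ± 15.6), Mlx (80.4 ± 11.5), Max (74.2 ± 21.9), Mga (43.0 ± 3.62), Mxd3 (33.1 ± 5.10), Mxd1 (31.0 ± 3.29), Mxd4 (29.4 ± 9.20), Mnt (6.81 ± 1.34) and Mycl (0.030 ± 0.068; SD, n = 5 for each TPM value). The levels of Myc lay above those of Mycn in every library, and those of Mycn above Mlx. Max lay above Mga without overlap, while Mlx and Max overlapped, as did Mga with Mxd3, Mxd3 with Mxd1 and Mxd1 with Mxd4. Mnt lay below Mxd4 and above Mycl without overlap. In CKO HSCs Max (91.2 ± 22.1 TPM) stood before Mlx (77.7 ± 13.9 TPM) and Mxd4 (27.8 ± 4.64 TPM) before Mxd1 (26.0 ± 2.76 TPM), in each case with overlapping ranges, and the other places in the order were the same.

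**Figure D4:**
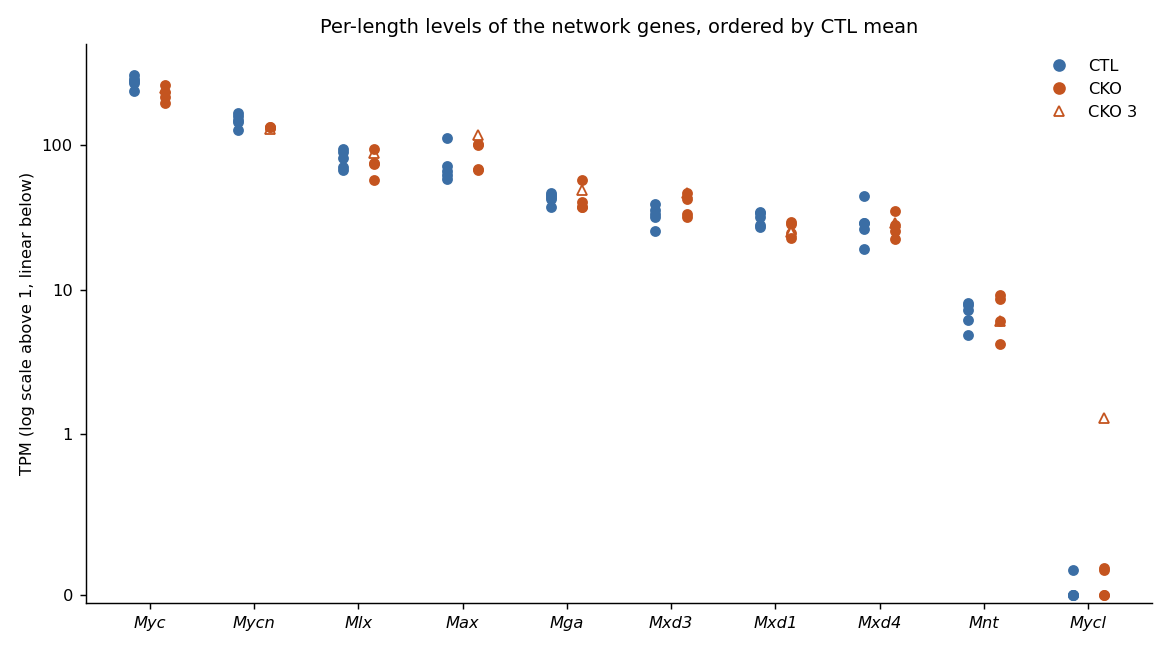
TPM of the 10 members in each library (vertical axis, log scale above 1 and linear below), ordered by the CTL mean, with CTL and CKO libraries as separate columns of points. Levels run from Myc, at 196 TPM or above in each library, to Mycl, at 1.29 TPM or below.

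The ratio of Myc to Max TPM, 2 genes whose products dimerize, was 4.60, 4.57, 2.40, 4.79 and 3.32 in CTL 1 to 5. In CKO 1 to 5 it was 2.12, 1.92, 2.11, 3.82 and 3.44, so Myc RNA exceeded Max RNA in every library. CKO 1, CKO 2 and CKO 3 lay below all CTL libraries and the ranges overlapped. These libraries and CTL 3, the lowest CTL library for this ratio, were also those with the most genes detected. The part of this in the ratio was not tested. The ratio of Myc to Mycn TPM was narrower, 1.74 to 1.92 in CTL and 1.49 to 1.97 in CKO libraries.

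Among 8274 genes whose log2 CPM averaged 5 or more, those whose level was most like that of Myc over the 10 libraries were Gadd45gip1 (Pearson's r = 0.961, Spearman's rho = 0.952), Slc25a39 (0.954 and 0.976) and Tomm34 (0.940 and 0.891). These are the 3 highest of all r values and are given as a description. The cause of the likeness was not tested.

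The cofactors and corepressors of the network showed no called gene, beside 0.226% of all tested genes. At that share, lists this short would mostly hold none. Of 15 tested MYC cofactors, such as the Trrap, Ep400 and Ruvbl2 subunits of chromatin complexes, 3 were higher and 12 lower in CKO libraries, with 0 called and a median log2 fold change of -0.06, where the median of all tested genes was 0.01. With the GC and length offset, 8 of the cofactors were higher and 7 lower, with a median of 0.01. Ep400 had the smallest p of these (log2 fold change 0.23 ± 0.08; edgeR, adjusted p = 0.247). Of 16 tested genes listed with the SIN3 corepressor, which MXD proteins and MNT bring to DNA, 11 were higher and 5 lower with a median of 0.03 and 0 called. The corepressor gene Ncor1 came first at 0.25 (edgeR, adjusted p = 0.210), before the deacetylase Hdac2 at 0.19, and with the offset they were at 0.12 and 0.07. Of 9 tested partners of MGA in its Polycomb complex, 4 were higher and 5 lower, with a median of -0.04 and 0 called. L3mbtl2, a subunit that binds histone, was at -0.34 ± 0.11 (edgeR, adjusted p = 0.231) and at -0.18 with the offset. Without CKO 3 the medians were -0.04 for the cofactors, 0.04 for the genes listed with SIN3 and 0.00 for the partners of MGA. With the offset they were 0.05 for the genes listed with SIN3 and -0.09 for the partners of MGA. In each of these lists 1 gene had an unadjusted p under 0.05, beside 12.9% of all tested genes.

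MYC proteins are short-lived, and 20 tested genes for their phosphorylation, ubiquitination and stabilization were followed. Of these, 14 were higher and 6 lower in CKO libraries, with a median log2 fold change of 0.10 (0.13 without CKO 3 and 0.08 with the offset). At an unadjusted p under 0.05, 4 passed and were higher, where 5.8% of all tested genes passed and were higher. By edgeR 0 were called, beside 0.226% of all tested genes. The list was chosen with earlier results of these data known, so its counts are given as a description. Fbxw7, the substrate receptor of the ubiquitin ligase that marks phosphorylated MYC for degradation, was at 32.4, 17.2, 23.2, 18.5 and 26.5 CPM in CTL 1 to 5. CKO 1 to 5 had 41.1, 40.1, 33.6, 35.0 and 40.6 CPM, and each CKO library, CKO 3 included, lay above each CTL library. Of all tested genes, 1.35% were higher in CKO without overlap. The log2 fold change of Fbxw7 was 0.70 ± 0.18 (0.74 without CKO 3 and 0.61 with the offset). Its adjusted p was 0.130 in edgeR, 0.576 in edgeR with the offset and 0.0232 in DESeq2. Ppp2r5a, the phosphatase subunit that acts on MYC before Fbxw7, was at 0.41 ± 0.13 (edgeR, adjusted p = 0.210), and the deubiquitinase Usp37 at 0.19 ± 0.07 (edgeR, adjusted p = 0.278), which was 0.01 with the offset.

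No MYC target of ribosome biogenesis or metabolism was called, beside 0.226% of all tested genes. At that share, lists of this size would mostly hold none. Of 26 tested genes of the nucleolus and ribosome biogenesis, 16 were higher and 10 lower in CKO libraries, with 0 called and a median log2 fold change of 0.02, which was -0.00 without CKO 3. With the offset, 17 of them were higher and 9 lower, with a median of 0.06. Wdr43, needed for ribosomal RNA synthesis, had the smallest p, at 0.23 ± 0.09 (edgeR, adjusted p = 0.309) and at 0.12 with the offset. Of 30 tested metabolic targets, 18 were higher and 12 lower, with 0 called and a median of 0.03 (0.00 without CKO 3). With the offset, 15 were higher and 15 lower. An unadjusted p under 0.05 was reached by 5 of the 30 (3 higher and 2 lower), beside 12.9% of all tested genes. Of the 26 genes of the nucleolus and ribosome biogenesis, 1 reached it. Prps2, which makes the ribose phosphate of nucleotides, was at 0.26 ± 0.08 (edgeR, adjusted p = 0.218) and at 0.15 with the offset, and Tyms, the thymidylate synthase, at 0.27 ± 0.11 (edgeR, adjusted p = 0.309). The glycolytic enzyme gene Pkm was at -0.20 ± 0.08 (edgeR, adjusted p = 0.306), which turned to 0.02 with the offset.

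Of 19 tested targets in cell cycle and translation, 8 were higher and 11 lower, with a median log2 fold change of -0.02 (-0.05 without CKO 3). Of the 19, 1 was called, beside 0.226% of all tested genes. An unadjusted p under 0.05 was reached by 3 (2 higher and 1 lower), beside 12.9% of all tested genes. With the offset, 10 were higher and 9 lower. This list too was chosen with earlier results of these data known, so its counts are given as a description. The called gene was Ccnd1, which encodes cyclin D1 and which MYC can raise or lower depending on the cell. It was at 75.9, 70.7, 58.8, 80.9 and 61.0 CPM in CTL 1 to 5, and at 94.8, 100.2, 104, 140.2 and 122 CPM in CKO 1 to 5. Of all tested genes, 1.35% were higher in CKO with no overlap, and Ccnd1 was among them, with CKO 3 also above the controls. It rose in CKO HSCs from 69.5 ± 9.47 to 112 ± 18.7 CPM (SD, n = 5 each; log2 fold change 0.69 ± 0.13; edgeR, adjusted p = 0.0456). Its log2 fold change was 0.72 without CKO 3 and 0.74 with the offset, at least as large as in the fit of all libraries, but the adjusted p was then 0.0521 and 0.171. The call was lost in each fit that left out 1 library, and over all alternatives the largest adjusted p was 0.190. The transcription factor gene E2f1, a MYC target, was at -0.39 ± 0.17 (edgeR, adjusted p = 0.365) and at -0.15 with the offset, and Id2, an inhibitor of helix-loop-helix factors, at 0.52 ± 0.19 (edgeR, adjusted p = 0.270).

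Of 12 tested genes that MYC is known to lower, 7 were higher and 5 lower in CKO libraries, with a median log2 fold change of 0.07 (0.03 without CKO 3). With the offset, 6 were higher and 6 lower, with a median of 0.09. An unadjusted p under 0.05 was reached by 6 of the 12 (4 higher and 2 lower), beside 12.9% of all tested genes. The genes of this list were chosen with earlier results of these data known, so its counts are given as a description only. Of the 12, 1 was called, beside 0.226% of all tested genes. This was Ndrg1, a gene repressed by MYC and raised by hypoxia, at 308, 286, 300.2, 266 and 256 CPM in CTL 1 to 5. Ndrg1 was at 195, 212, 207, 225 and 156 CPM in CKO 1 to 5. It fell without overlap, in CKO 3 as well (log2 fold change -0.51 ± 0.09; edgeR, adjusted p = 0.0421), where 3.33% of all tested genes did not overlap in either direction. The log2 fold change of Ndrg1 was -0.52 without CKO 3 and -0.48 with the offset, close to that of all libraries, but the adjusted p was then 0.0503 and 0.171. Of the fits that left out 1 library, those without CTL 5 (adjusted p = 0.0449) and without CKO 4 (adjusted p = 0.0358) kept the call, and the largest adjusted p of all alternatives was 0.305. Itgal, which encodes an integrin subunit of leukocytes, was at 1.20 ± 0.36 (edgeR, adjusted p = 0.176; DESeq2, adjusted p = 0.0440), and Klf6 at 0.38 ± 0.15 (edgeR, adjusted p = 0.312).

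**Figure D5:**
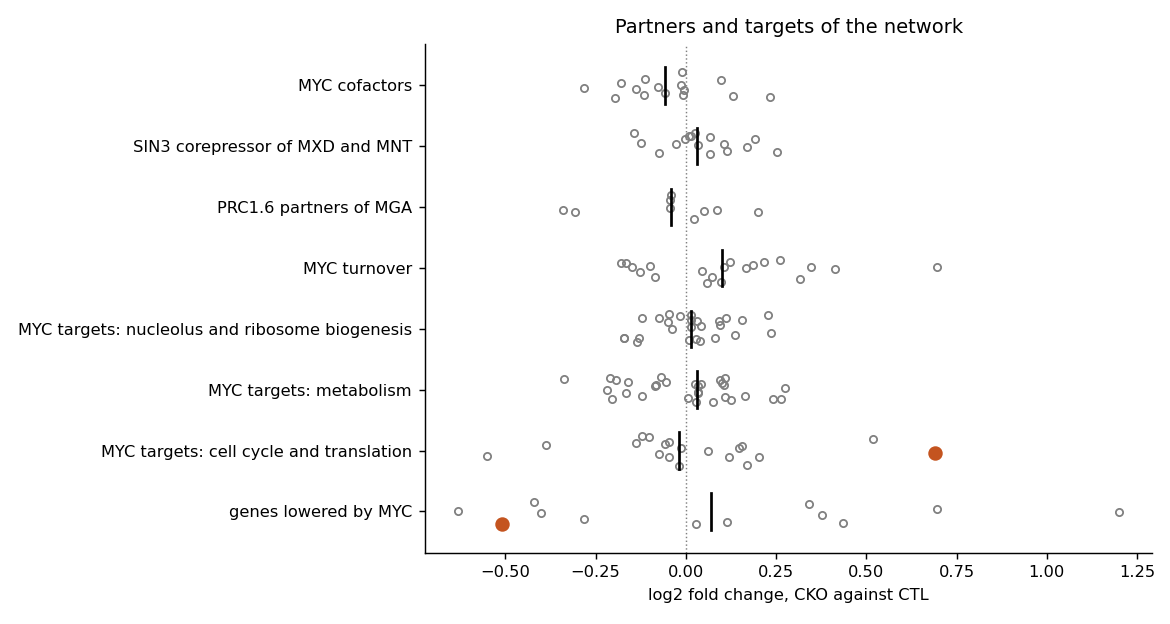
Log2 fold change of CKO against CTL (horizontal axis) for each tested gene of 8 lists of partners and targets of the network, with a black bar at the median of each list and filled points for called genes. The medians lie between -0.06 and 0.10, and the filled points are Ccnd1 at 0.69 and Ndrg1 at -0.51.

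The E-box was also followed across the tested genes. CACGTG was present in the promoter window of 1256 tested genes, whose median log2 fold change was -0.02, and absent from that of 9710 tested genes, whose median was 0.01. Of all 10966 tested genes with a window, 11.5% held it. Among the lists it was present in 8 of 26 metabolic targets with a window (30.8%), in 5 of 16 targets of cell cycle and translation (31.2%), in 2 of 9 genes lowered by MYC (22.2%) and in 4 of 21 targets of the nucleolus and ribosome biogenesis (19.0%). It was present in 1 of 7 partners of MGA (14.3%), 2 of 16 genes of MYC turnover (12.5%), 1 of 12 genes listed with SIN3 (8.33%) and 1 of 14 MYC cofactors (7.14%). The genes of each list are few, and no test of these shares was run.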

How the data were processed

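The authors aligned single-ended reads of polyA RNA to GRCm38 with HISAT2, counted reads per gene with Rsubread and deposited raw counts per gene symbol with the length of each gene. The annotation, the use of strand, multiply mapped reads and duplicates are not given in the sources used here, so genes with overlaps or near copies are uncertain. Samples were grouped by the genotype label, with CTL for wildtype and CKO for knockout.

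The deposited counts were fitted with edgeR 4.0.16 under R 4.3.3 (filterByExpr, TMM, robust quasi-likelihood F test, Benjamini-Hochberg adjustment over all 14165 tested genes). A gene was called at an adjusted p under 0.05 with a fold change above 20%. Values without a model (CPM) were compared by exact permutation of the libraries, two-sided. The biological coefficient of variation was 25.3%. Alternatives were DESeq2 1.42.0, its size factors in edgeR, limma-voom (limma 3.58.1), no filter, at least 10 counts in every library, an adjusted p under 0.1, the replicate number as a block, a loess offset for GC content and length (13930 genes, 98.3%), both together, and each library left out. The offset without CKO 3 was chosen after seeing the data. The fit was tested on simulated data. Positions come from GENCODE and promoters from RefSeq.

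Genes named were the members, Mxi1, Mlxip, Mlxipl, Pvt1, Cited2, the markers, of each list of partners and targets the genes with the smallest p (at most 3) and those called, and the 3 genes most like Myc. Members, lists and markers were chosen with earlier results of these data known. Replicates are separate mice. Depth limits genes with few reads, such as Mycl, Mxd4 and Mnt.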

Additional observations from a re-analysis of the deposited data

Results flagged for a closer look

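In each of 26 groups of 5 libraries, the gap between the most extreme library and its nearest neighbour was divided by the range of the group, and Dixon's critical value for 5 libraries at the 95% level marked a library far from the others, which chance gives in about 1 of 20 groups. There were 2 such groups. For Max in CTL the ratio was 0.770, since CTL 3 was at 94.4 CPM and the next library at 58.9 CPM. For Cited2 in CKO the ratio was 0.961, since CKO 3 was at 120.1 CPM and the next library at 8.30 CPM.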

How the results depend on the processing

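No member was called under any alternative run, and the smallest adjusted p of Myc was 0.158 and that of Mycn 0.220. Of 171 values of members under the alternatives, 156 kept direction and side of the threshold and 15 reversed. The 32 called genes (17 higher, 15 lower) became 338 (146 and 192) with DESeq2, 8 (5 and 3) with the GC and length offset, 11 (8 and 3) with the replicate block and this offset, and 127 at an adjusted p under 0.1. Leaving out 1 library gave 8 to 42 calls (5 to 27 higher, 3 to 18 lower), with 8 without CKO 2, 10 without CTL 4, 11 without CTL 2, 14 without CKO 1 or CKO 5, and 16 without CTL 1 or CTL 3. Of the 2 called genes of the lists (Ccnd1 and Ndrg1), 1 remained called with limma-voom or the replicate block, 0 with the offset, with the block and the offset or with the offset and without CKO 3, and 0 to 1 when 1 library was left out. DESeq2 called 4. The cause was not tested.

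The labels state no pairing of libraries by replicate number. With group means subtracted, same-numbered libraries correlated over 0.1 in 2 of 5 pairs (-0.095 to 0.208). So few pairs cannot decide whether the numbers pair the libraries. The replicate block left 24 calls, 9 of them lower in CKO. Mga reversed to -0.24 with the offset, -0.24 with the block and the offset, and -0.22 with the offset and without CKO 3. Mnt reversed to -0.0043 without a filter, -0.0078 with limma-voom and -0.011 with the replicate block. Ruvbl2 reversed to 0.015 with the offset and 0.0058 with the block and the offset, Pkm to 0.023 and 0.028 (0.011 with the offset and without CKO 3), and Usp37 to -0.0078 with the block and the offset. When 1 library was left out, log2 fold changes ran from -0.13 to 0.043 for Mlx, -0.20 to 0.12 for Mxd4, -0.13 to 0.14 for Mnt, -0.064 to 0.095 for Mga and -0.20 to 0.048 for Mxi1. Without gene length, 4 of 10 members kept their place in the order of levels. Depth limited Mycl and Mlxipl, which could not be tested.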
